A study of Saccharomyces cerevisiae with 6 samples.

Results

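The comparison described here sets yeast cells with no Rrp6 protein, rrp6Δ, against cells that make Rrp6 without its exoribonuclease activity, Rrp6exo-. It asks what loss of the protein adds to loss of its catalytic activity, over every listed gene. The members are 4 of the 6 libraries of the series, taken by the strain that the labels name. They are 2 clones of each strain, and all 6277 listed genes were compared. The remaining 2 libraries, from cells with WT RRP6, serve as the background level for each gene.

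All strains were Saccharomyces cerevisiae lacking the chromosomal RRP6 and MTR4 genes, with MTR4 restored from 2 plasmids, one marked with URA3 and one with LEU2. They differed in a further plasmid, marked with HIS3, which was empty in rrp6Δ, carried the RRP6 D238N allele in Rrp6exo-, and carried WT RRP6 in WT. Cells grew at 30 °C in synthetic medium lacking histidine, leucine and uracil and were collected in mid-logarithmic phase. Total RNA was depleted of rRNA and sequenced from stranded libraries, and the values are scaled counts, which are reads per gene divided by a size factor for each library. RRP6 therefore came from a plasmid, with a short segment of its promoter, in both strains that had it, and each strain is represented by only 2 clones, so that p-values measure the spread between these cultures.

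Rrp6 is a nuclear exoribonuclease that binds the RNA exosome, the complex that trims and degrades RNA from the 3′ end. It matures small nucleolar RNAs (snoRNAs) and other structured RNAs and removes aberrant nuclear transcripts. The protein also has parts outside the catalytic centre that hold the exosome and its cofactors together, and through which the helicase Mtr4 is recruited. A catalytically dead Rrp6 can keep those contacts, and a deletion loses both.

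The D238N allele changes a catalytic aspartate codon of RRP6 (YOR001W). Codon 238 lies at chrXV:327543-327545 on the plus strand of R64, the assembly also known as sacCer3. The RefSeq sequence from 30 bases before to 30 bases after it, at chrXV:327513-327575, is shown because this codon is what separates Rrp6exo- from WT, and it is given as the reference has it with the codon in capitals.
RRP6 codon 238: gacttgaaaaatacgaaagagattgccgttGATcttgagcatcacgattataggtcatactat

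The sequences of 7 C/D box snoRNAs and 1 H/ACA box snoRNA that carry the values below follow, 5′ to 3′, from RefSeq R64. C/D snoRNAs guide methylation of rRNA and are held by the box C and box D elements that close the RNA at its ends, while H/ACA snoRNAs guide the conversion of uridine to pseudouridine. Capitals mark the first TGATGA within 30 bases of the 5′ end and the last CTGA within 20 bases of the 3′ end, searched on the RNA strand only. Both motifs were present in 24 of 31 C/D genes (77.4%) and in 0 of 29 H/ACA genes. In SNR46 the capitals mark ACA within 6 bases of the 3′ end, which 16 of the 29 annotated H/ACA genes held. SNR77 (chrXIII:297506-297593, plus strand), SNR67 (chrV:61352-61433, plus), SNR50 (chrXV:259489-259578, plus), SNR55 (chrXII:794697-794794, minus), SNR72 (chrXIII:298554-298651, plus) and SNR79 (chrXII:348427-348510, minus) had both rrp6Δ libraries above both Rrp6exo- libraries. SNR47 (chrIV:541602-541700, minus) is shown because its libraries overlapped, and SNR46 (chrVII:545370-545566, plus) as an H/ACA RNA with higher values in rrp6Δ.
SNR77: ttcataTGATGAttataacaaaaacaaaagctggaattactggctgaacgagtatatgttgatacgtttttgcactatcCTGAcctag
SNR67: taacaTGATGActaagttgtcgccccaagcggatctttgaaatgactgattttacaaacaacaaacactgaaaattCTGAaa
SNR50: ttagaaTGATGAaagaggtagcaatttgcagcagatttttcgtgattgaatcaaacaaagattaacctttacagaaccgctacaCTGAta
SNR55: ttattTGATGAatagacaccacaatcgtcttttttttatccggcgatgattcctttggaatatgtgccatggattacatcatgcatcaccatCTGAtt
SNR72: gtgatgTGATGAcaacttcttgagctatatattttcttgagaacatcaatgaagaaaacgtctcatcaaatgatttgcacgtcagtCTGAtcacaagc
SNR79: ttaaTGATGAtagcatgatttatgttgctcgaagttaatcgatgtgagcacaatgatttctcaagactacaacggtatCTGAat
SNR47: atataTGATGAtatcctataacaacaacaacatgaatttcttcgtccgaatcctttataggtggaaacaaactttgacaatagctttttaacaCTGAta
SNR46: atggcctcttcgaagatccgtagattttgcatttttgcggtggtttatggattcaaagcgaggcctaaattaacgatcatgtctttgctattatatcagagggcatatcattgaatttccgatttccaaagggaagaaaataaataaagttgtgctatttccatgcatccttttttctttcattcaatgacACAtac

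RRP6 itself was read in every library first, as the check of the labels. It had 4.17 and 8.33 scaled counts in rrp6Δ, from 4 and 9 reads, against 18538 and 21173 in Rrp6exo- and 19503 and 21626 in WT. The log2 fold change between rrp6Δ and Rrp6exo- was -11.48 (95% interval -12.16 to -10.80, limma adjusted p = 0.00013). A single base change leaves the RRP6 count in place, so the counts cannot tell Rrp6exo- from WT. MTR4, the helicase gene carried on plasmids, had 63190.1 and 64556 scaled counts in rrp6Δ, against 77818 and 66605 in Rrp6exo- and 69983 and 58489 in WT, and its log2 difference of -0.17 had an interval of -0.48 to 0.14. The flanking chromosomal genes PHO80, a cyclin of phosphate signalling, and ALG6, a glucosyltransferase of the endoplasmic reticulum, differed by 0.10 and -0.03 on the log2 scale, with intervals of -0.22 to 0.43 and -0.30 to 0.24.

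Reads on listed genes numbered 34188755 and 38707137 in rrp6Δ, 35992809 and 37427111 in Rrp6exo-, and 39501874 and 39235823 in WT. RNA integrity numbers ran from 6.1 to 8.9 over all samples by the methods of the study. The marker HIS3 was at 32581 and 36525 scaled counts in rrp6Δ, 25792 and 28104 in Rrp6exo- and 56110.0 and 46154 in WT, so both mutants lay below both WT libraries for the marker of the plasmid that differed. Between the mutants HIS3 differed by 0.36 on the log2 scale (interval 0.05 to 0.66) without overlap, LEU2 by -0.03 and URA3 by -0.07. LYS2, a background marker, differed by -0.33 (interval -0.58 to -0.09), also without overlap, and DESeq2 with the block called it (adjusted p = 0.018).

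Few genes were called between rrp6Δ and Rrp6exo-. Of 6277 genes, limma called 1 at an adjusted p under 0.05 (0.0159%), which was RRP6, lower in rrp6Δ. With libraries of the same number compared as pairs, the replicate block, limma called 2 (0.0319%), RRP6 and the mitochondrial gene ATP6. The unadjusted limma p was under 0.05 for 343 genes (5.46%), edgeR's quasi-likelihood test called 1, and DESeq2 called 22 genes as higher (0.372% of the 5911 it tested) and 27 as lower (0.457%). Both rrp6Δ libraries lay above both Rrp6exo- libraries in 1086 genes (17.3%) and below them in 998 (15.9%). The median log2 fold change was 0.0029, and the 95% limma interval lay within a 2-fold change either way for 5266 genes (83.9%). Among the 5677 genes with a mean of at least 50 scaled counts in the higher strain, 20 were at least 2-fold higher in rrp6Δ and 2 at least 2-fold lower, called or not. Below, a gene is said to have been called, or not, by limma with and without the block and by DESeq2 without it. DESeq2 with the block called 122 genes, and its adjusted p is given beside a gene that it alone of these fits called.

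**Figure D1:**
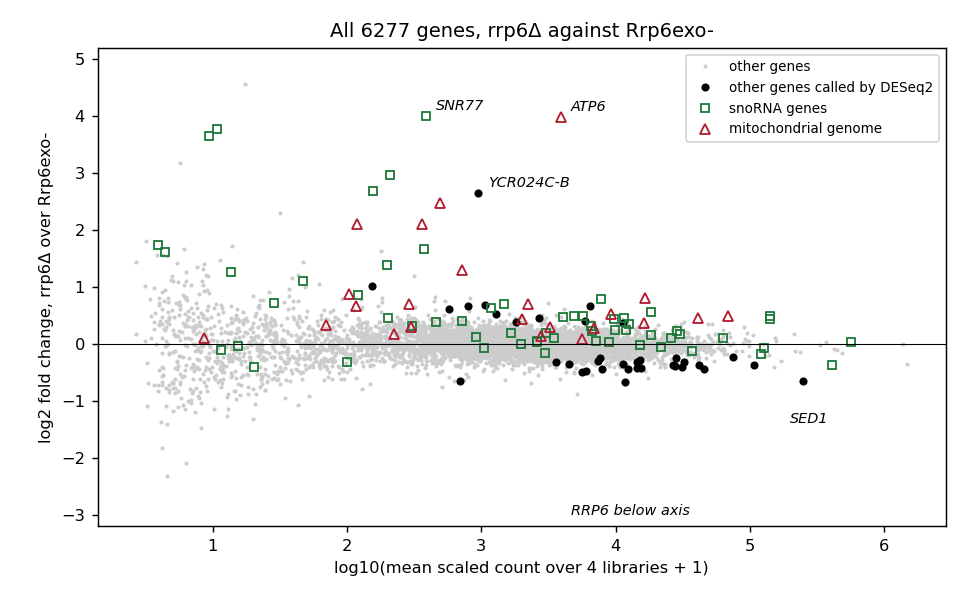
Log2 fold change of rrp6Δ over Rrp6exo- (y axis) against the log10 of the mean scaled count over the 4 libraries plus 1 (x axis), 1 symbol per gene, with the 23 genes of the mitochondrial genome as triangles, the 60 snoRNA genes as squares and other genes called by DESeq2 as black points. RRP6, at -11.48, is below the axis, and ATP6 and SNR77 stand at 3.98 and 4.01. All 23 mitochondrial genes lie above 0, against 3174 of all 6277 genes.

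The difference between the mutants moved with the base composition of a gene, so a corrected value is given beside many of the results below. Among nuclear protein-coding genes with at least 50 scaled counts, the 20 genes with a GC content of up to 33% had a median log2 difference of 0.24, and the 260 genes above 47% had -0.12. The medians were 0.12 and -0.06 between the libraries of replicate 1, and 0.35 and -0.19 between those of replicate 2. With both replicates averaged, each bin in between had a lower median than the one before it. Both rrp6Δ libraries were above both Rrp6exo- libraries in 43.5% of the genes of 33 to 35% GC and in 5.0% of those above 47%, and below them in 1.57% and 32.7%. Replicate 2 minus replicate 1 had medians at 33 to 35% GC of 0.01 in rrp6Δ, -0.13 in Rrp6exo- and -0.08 in WT, and above 47% of -0.06 in rrp6Δ, 0.11 in Rrp6exo- and 0.02 in WT. Length moved with the difference as well, with medians of 0.05 for the 1447 genes of 500 to 1000 bases and -0.10 for the 69 above 5000 bases. The part of base composition or length in the results below was tested only as far as a correction for GC content goes. That correction, chosen after the values were seen, fitted a smooth curve of GC content to each library over nuclear coding genes, and with it limma still called 1 gene and DESeq2 called 9 higher and 11 lower, of which 8 and 10 had been called without it.

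**Figure D2:**
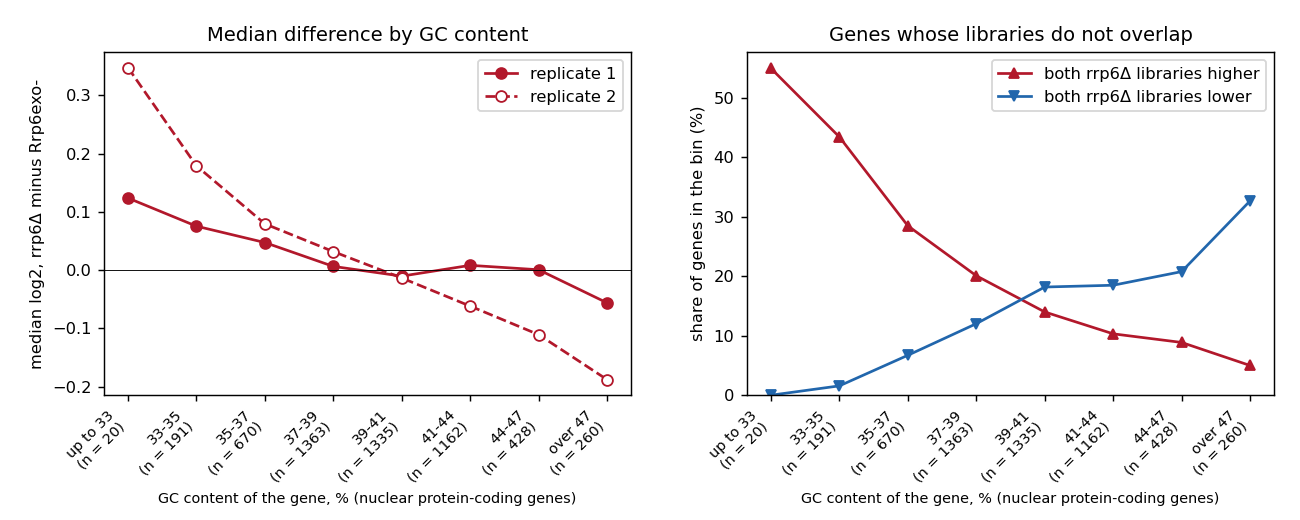
Left, the median log2 difference, rrp6Δ minus Rrp6exo-, in bins of GC content (x axis, %), with replicate 1 as filled and replicate 2 as open points; right, the share of genes in each bin (%) with both rrp6Δ libraries above (upward triangles) or below (downward triangles) both Rrp6exo- libraries. The medians of replicate 2 pass from 0.35 in the lowest bin to -0.19 in the highest, and the lower share reaches 32.7%.

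Transcripts of the mitochondrial genome lay higher in rrp6Δ, with ATP6 passing the test with the block and 15 of 23 listed genes not overlapping, all higher, against 17.3% of all genes. This genome encodes subunits of the respiratory chain and the ATP synthase, 1 ribosomal protein and the mitochondrial rRNAs, and it is transcribed by its own polymerase. ATP6 (Q0085, chrM:28487-29266 on the plus strand of R64), which encodes a membrane subunit of the ATP synthase, had 5649 and 9003 scaled counts in rrp6Δ, against 471 and 430.1 in Rrp6exo- and 525 and 1020.0 in WT. Both rrp6Δ libraries were far above all 4 others, and the WT libraries also differed from each other. The log2 fold change of ATP6 between rrp6Δ and Rrp6exo- was 3.98 (standard error 0.36, 95% interval 3.10 to 4.87). It missed the limma threshold (adjusted p = 0.12) and passed with the replicate block (adjusted p = 0.00054, standard error 0.22). ATP6 also passed in edgeR with the block (adjusted p = 0.00052) and in DESeq2 (adjusted p = 2.6e-26). With GC correction its log2 fold change was 3.79 (adjusted p = 9.9e-05 with the block). The 23.7% GC of ATP6 lies below the 33.8% at which the curve begins, so its correction is the value at the edge of the curve and not one made at its own GC content. Without the block, the limma call rested on which libraries entered: the adjusted p was 0.033 without WT replicate 1, 0.0305 without WT replicate 2, and from 0.39 to 0.82 with any 1 library of the mutants left out. The log2 fold change stayed between 3.65 and 4.32 with any 1 library left out.

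The other mitochondrial subunit genes had smaller fold changes than ATP6. COX1, the catalytic subunit of cytochrome oxidase, had 19010.1 and 23458 scaled counts in rrp6Δ, against 11586 and 12444 in Rrp6exo- and 10740.1 and 16538 in WT (log2 fold change 0.81, interval 0.28 to 1.35, DESeq2 adjusted p = 0.0501, and 5.1e-08 with the block). COB, cytochrome b, had 2455 and 3061 in rrp6Δ, against 1824 and 1537 in Rrp6exo- and 1542 and 1793 in WT, a log2 fold change of 0.71 that DESeq2 called (adjusted p = 0.016) and limma did not, with or without the block (adjusted p = 0.88 and 0.11), nor DESeq2 after GC correction (adjusted p = 0.24). Neither COX1 nor COB overlapped between the mutants. VAR1, the mitochondrially encoded ribosomal protein, was 0.66 higher on the log2 scale, COX3 0.52 and OLI1, the ring subunit of the ATP synthase, 0.37, each with libraries that did not overlap, and of these DESeq2 with the block called COX3 (adjusted p = 0.032). COX2 was at 6502 and 8795 in rrp6Δ, against 5716 and 6707 in Rrp6exo-, and its libraries did overlap. In all, 6 of the 7 subunit genes had both rrp6Δ libraries above both Rrp6exo- libraries, set against 17.3% of all genes, and their median log2 fold change was 0.66 (0.31 within replicate 1 and 0.91 within replicate 2).

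Reading frames inside the introns of COX1 and COB, which encode maturases and endonucleases, gave the next largest values. AI3 had 713 and 952 scaled counts in rrp6Δ, against 185 and 117 in Rrp6exo- and 152 and 454 in WT, a log2 fold change of 2.48 (DESeq2 adjusted p = 0.0015). BI4, the maturase of a COB intron, had 479 and 689 in rrp6Δ, against 147 and 120.5 in Rrp6exo-, with 266 in WT replicate 2 (2.10 on the log2 scale, DESeq2 adjusted p = 0.0017). For both genes the rrp6Δ libraries stood above all others, and WT replicate 2 stood well above WT replicate 1. AI5_ALPHA and BI2 were called by DESeq2 too, at 2.11 and 1.30, and 9 of the 10 intron frames did not overlap, all higher in rrp6Δ, against 17.3% of all genes, with a median of 0.79. None of the intron frames passed limma with the block, and after GC correction DESeq2 still called AI3 and BI4 but not AI5_ALPHA (adjusted p = 0.17) or BI2 (0.064). Their annotated spans overlap COX1 or COB, so reads of an intron frame and of its host gene cannot be fully told apart. AI1, a frame in the first COX1 intron, had 71741 and 89650.2 in rrp6Δ, against 63984 and 51191 in Rrp6exo-, which is 0.49 on the log2 scale (adjusted p = 0.019 in DESeq2 with the block).

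The mitochondrial rRNAs and the RNA of mitochondrial RNase P did not separate the strains. Total RNA had been depleted of rRNA, and how far this removed the mitochondrial rRNAs in each library was not tested. Their counts may thus not follow their abundance. The small-subunit rRNA had 2293 and 2923 scaled counts in rrp6Δ, against 4851 and 1134 in Rrp6exo-, and the large-subunit rRNA 5017 and 6204 in rrp6Δ, against 7436 and 3719.8 in Rrp6exo-. Rrp6exo- replicate 1 was the highest library for both rRNAs and replicate 2 the lowest. RPM1, the RNase P RNA, had 1627 and 3046 in rrp6Δ, against 2183 and 1244 in Rrp6exo-. All 23 of 23 mitochondrial genes had a fold change above 0, against 3174 of all 6277 genes. Of the 23, 15 did not overlap, all higher in rrp6Δ, against 17.3% of all genes. These genes are not independent of each other, since the spans of intron frames overlap COX1 or COB. The mitochondrial genes with a GC value had a median GC content of 21.2%, against 39.6% over all genes with a value, so the curve could not correct them at their own GC content. With the value at the edge of the curve, the median of these genes was 0.33, against 0.52 before correction. The corrected medians were 0.47 for the subunit genes and 0.59 for the intron frames, against 0.66 and 0.79 before it. In bulk RNA, more cells that hold mitochondrial DNA and more mitochondrial RNA per cell cannot be told apart. Of the nuclear genes of the respiratory chain and ATP synthase, 3 of 35 had both rrp6Δ libraries higher and 9 lower, against 17.3% and 15.9% of all genes, and their median of -0.14 turned to 0.030 without Rrp6exo- replicate 1.

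**Figure D3:**
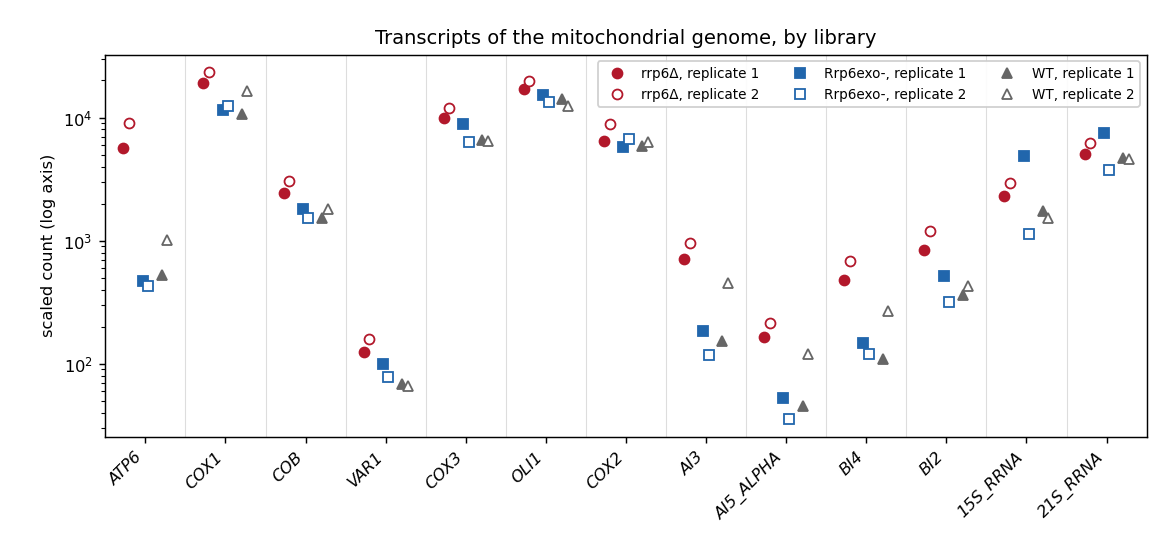
Scaled counts (log axis) of 13 mitochondrial genes in each library, with rrp6Δ as circles, Rrp6exo- as squares and WT as triangles, replicate 1 filled and replicate 2 open. ATP6 lies at 5649 and 9003 in rrp6Δ, against 471 and 430.1 in Rrp6exo-, whereas the 2 rRNAs spread within Rrp6exo- more than they differ between strains.

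Small nucleolar RNAs of the C/D box class lay higher in rrp6Δ as a group. Of 31 C/D box genes, 16 had both rrp6Δ libraries above both Rrp6exo- libraries and 1 below, against 17.3% and 15.9% of all genes. Their median log2 fold change was 0.46, 0.23 within replicate 1 and 0.84 within replicate 2. It was 0.85 without rrp6Δ replicate 1 and 0.15 without rrp6Δ replicate 2. DESeq2 called 3 of the C/D genes as higher and none as lower, against 0.372% and 0.457% of the 5911 genes it tested. Limma called none with or without the block. With strains at no more than 3 reads per library set to 3 reads, the median was 0.46. That setting changes only genes at the floor and can move the median little. With only genes of a mean scaled count of at least 10, the C/D median was 0.33. After the GC correction the median of all C/D genes was 0.46.

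The C/D genes that differed most belong to several transcription units. SNR77, which guides methylation of the small-subunit rRNA and is cut from a polycistronic precursor, had 354 and 1106 scaled counts in rrp6Δ, against 47.6 and 30.1 in Rrp6exo- and 3.93 and 43.7 in WT. SNR67, a guide for the large-subunit rRNA from another polycistronic unit, had 179 and 577 in rrp6Δ, against 43.7 and 37.4 in Rrp6exo- and 32.4 and 147 in WT. SNR50, a large-subunit guide with its own promoter, had 168 and 373 in rrp6Δ, against 39.8 and 36.4 in Rrp6exo- and 21.6 and 101 in WT. In SNR77, SNR67 and SNR50 both rrp6Δ libraries were above both Rrp6exo- libraries and above both WT libraries. In the same genes rrp6Δ replicate 2 stood above replicate 1, and WT replicate 2 above WT replicate 1. The log2 fold changes were 4.01 for SNR77 (interval 1.33 to 6.69), 2.96 for SNR67 (0.93 to 4.99) and 2.69 for SNR50 (0.84 to 4.53), and DESeq2 called SNR67 (adjusted p = 0.014) and SNR50 (0.028) but not SNR77 (0.088). After GC correction DESeq2 called SNR67 (adjusted p = 0.035) and not SNR50 (0.12). Limma's adjusted p was 0.88 for each of these genes, and 0.11 with the block.

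SNR55 and SNR72 had narrower intervals. SNR55, a small-subunit guide, had 406 and 743 scaled counts in rrp6Δ, against 202 and 146 in Rrp6exo- and 174 and 215 in WT, a log2 fold change of 1.67 (DESeq2 adjusted p = 0.0019, and 0.0063 after GC correction). SNR72, a large-subunit guide, had 201 and 374 in rrp6Δ, against 119 and 91.4 in Rrp6exo- and 30.4 and 30.2 in WT (1.39 on the log2 scale, DESeq2 adjusted p = 0.051, and 0.0079 with the block). WT lay near Rrp6exo- for SNR55 and below both mutants for SNR72, which DESeq2 called only with the block. Of other members of these precursors, SNR61, next to SNR55, differed by -0.11, and SNR76, between SNR77 and SNR73, by -0.03 (interval -0.99 to 0.92). SNR61 and SNR76 had few reads. SNR73, which had far more reads, was 0.48 higher without overlap and is described below. SNR70, of the unit that also holds SNR41, had 753 and 883 in rrp6Δ, against 616 and 619 in Rrp6exo- (0.40). SNR41 was -0.40, SNR128 -0.01 and SNR190 0.24, and none of these passed limma or DESeq2.

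The intervals of SNR73, SNR13, SNR47 and SNR69 held 0, although both rrp6Δ libraries of SNR73 and SNR69 lay above both Rrp6exo- libraries. SNR73, a large-subunit guide, had 4331 and 7203 scaled counts in rrp6Δ, against 4111 and 3881 in Rrp6exo- and only 459.7 and 437 in WT, so both mutants stood well above WT and the further difference between them was 0.48 (interval -0.09 to 1.06). SNR13 had 59189.5 and 72189 in rrp6Δ, against 57792 and 64469 in Rrp6exo- and 22713 and 28678 in WT. Both mutants thus lay above WT for SNR13, and the interval between them of -0.28 to 0.48 leaves out a 2-fold change. SNR47, which guides methylation of both rRNAs, had 66.7 and 114 in rrp6Δ, against 109 and 108 in Rrp6exo- and 29.5 and 17.7 in WT. Both mutants lay above WT for SNR47 as well. Between the mutants it was -0.31 (interval -1.22 to 0.59), and without rrp6Δ replicate 1 the sign turned, at 0.071. SNR69 had 167 and 307 in rrp6Δ, against 166 and 162 in Rrp6exo- and 810.4 and 1023 in WT, so both mutants lay below WT, and the interval of -0.29 to 1.22 holds a 2-fold difference. SNR66 and SNR39B were 0.70 and 0.48, with 0.10 and -0.11 within replicate 1 and 1.31 and 1.07 within replicate 2.

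4 C/D genes had at most 3 reads in each Rrp6exo- library and more than 3 in each rrp6Δ library. This rule fixes their direction. The count in the reverse direction and the share over all genes are not given here, so the genes are described only. SNR79, a small-subunit guide, had 4 and 32 reads in rrp6Δ, against 0 and 0 in Rrp6exo-, at least 5.60-fold higher with a floor of 3 reads per library. SNR39, encoded in an intron of RPL7A, had 4 and 38 reads in rrp6Δ, against 0 and 0 in Rrp6exo-, at least 6.53-fold higher on the same floor. These bounds compare means over the 2 libraries of a strain, and most reads of SNR79 and SNR39 came from rrp6Δ replicate 2. In rrp6Δ replicate 1 each had 4 reads against the floor of 3, so that library alone gives no bound of that size. SNR60 had 4 and 6 reads in rrp6Δ, against 0 and 2 in Rrp6exo-, and SNR87 had 4 and 7 in rrp6Δ, against 0 and 3 in Rrp6exo-, which is too few for a fold. SNR18, in an intron of EFB1, had 1035 and 1886 scaled counts in rrp6Δ, against 852 and 955 in Rrp6exo- (0.63 on the log2 scale, interval -0.09 to 1.35, adjusted p = 0.02 in DESeq2 with the block), and its annotated span overlaps its host gene.

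The length of the snoRNA moved with the difference. The 21 C/D genes of up to 110 nucleotides had a median log2 fold change of 0.70, with 14 not overlapping and higher in rrp6Δ and 1 not overlapping and lower, against 17.3% and 15.9% of all genes. The 10 longer ones had a median of 0.11, and 2 did not overlap, both higher in rrp6Δ. In the short genes rrp6Δ replicate 2 was above replicate 1 in 21 of 21, against 3044 of all 6277 genes. In the same 21 genes replicate 2 was above replicate 1 in 7 in Rrp6exo- and in 12 in WT. Their median log2 difference, replicate 2 minus replicate 1, was 0.89 in rrp6Δ, -0.04 in Rrp6exo- and 0.17 in WT. In the longer genes rrp6Δ replicate 2 and replicate 1 differed by a median of 0.02. Short C/D RNAs thus had more reads in 1 of the 2 rrp6Δ libraries than in the other, and within replicate 1 their median difference from Rrp6exo- was 0.23, against 1.07 within replicate 2. The length bound was chosen after the values were seen, and the recovery of short RNA in each library was not tested.

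**Figure D4:**
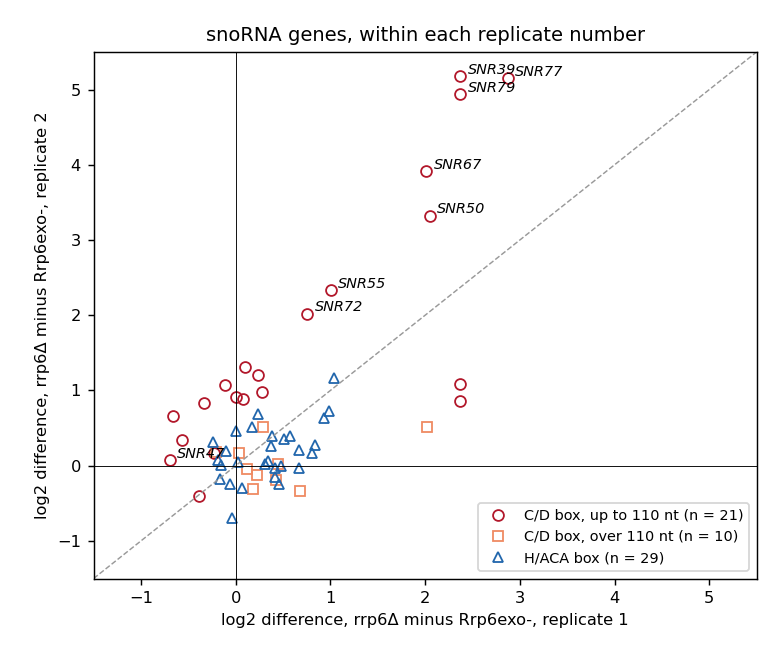
Log2 difference, rrp6Δ minus Rrp6exo-, of each snoRNA gene between the libraries of replicate 1 (x axis) and of replicate 2 (y axis), with C/D genes of up to 110 nucleotides as circles, longer C/D genes as squares and H/ACA genes as triangles; the dashed line marks equal differences. Short C/D genes lie mostly above the line, with SNR77 at 2.87 and 5.15, and SNR47 is at -0.70 and 0.08.

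H/ACA snoRNAs had a smaller median than all C/D snoRNAs, but a larger one than the C/D genes over 110 nucleotides (0.11). Neither difference was tested. Every listed H/ACA gene was at least 161 nucleotides long, so class and length are not separated here. Of 29 genes, 12 had both rrp6Δ libraries higher and 3 lower, against 17.3% and 15.9% of all genes, and the median was 0.24 (0.37 within replicate 1, 0.17 within replicate 2). Their median depended on the Rrp6exo- libraries, being 0.007 without replicate 1 and 0.41 without replicate 2. SNR11 had 9795 and 9992 scaled counts in rrp6Δ, against 5144 and 6410.3 in Rrp6exo- and 6054 and 4644 in WT (0.78, DESeq2 adjusted p = 0.0074). SNR46 had 6566 and 6718 in rrp6Δ, against 4401 and 5108 in Rrp6exo-, and WT at 6812 and 7060.0 was above both mutants (0.49, DESeq2 adjusted p = 0.0057). For SNR11 rrp6Δ was above all 4 other libraries, and for SNR46 it was between Rrp6exo- and WT. SNR36 and SNR80 were 0.85 and 1.10, each higher in both replicates, from 168 and 144 scaled counts of SNR36 in rrp6Δ, against 84.5 and 86.2 in Rrp6exo-. After GC correction neither SNR11 nor SNR46 passed DESeq2 (adjusted p = 0.12 and 0.24).

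No other stable RNA and no gene of the exosome machinery, RRP6 aside, was called. SNR6, the spliceosomal U6 RNA made by RNA polymerase III, had 441 and 714 scaled counts in rrp6Δ, against 352 and 286 in Rrp6exo- and 307 and 193 in WT (0.82, without overlap between the mutants). SCR1, the RNA of the signal recognition particle, was -0.35, and RPR1, the nuclear RNase P RNA, was -0.21. The 12 genes of the core exosome and its nuclear cofactors had a median of 0.01 and a range from -0.18 to 0.16. DIS3, the catalytic subunit of the core exosome, was -0.18 (interval -0.42 to 0.05), RRP40, a cap subunit, 0.16 (-0.11 to 0.43), and LRP1, the partner of Rrp6 also known as Rrp47, -0.15 (-0.54 to 0.24). NRD1, an RNA-binding protein of early termination, had 19019.5 and 20850.4 in rrp6Δ, against 23354 and 29707 in Rrp6exo- and 11242 and 13561 in WT (-0.40, adjusted p = 0.88). The snoRNA-binding proteins NOP1, the methyltransferase of C/D particles, and NHP2, an H/ACA protein, were -0.34 and 0.25, and the median of the 8 core proteins was -0.00098. DESeq2 with the block called NRD1 (adjusted p = 0.0031) and NOP1 (0.049).

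Among nuclear coding genes, the largest fold change that DESeq2 called as higher was that of an uncharacterized small open reading frame. YCR024C-B (chrIII:162599-162865, minus strand) had 1563 and 1665 scaled counts in rrp6Δ, against 323 and 200.5 in Rrp6exo- and 338 and 769 in WT. Both rrp6Δ libraries were above all others, with WT replicate 2 next. Its log2 fold change was 2.66 (interval 1.62 to 3.69), called by DESeq2 (adjusted p = 5.7e-07, and 5.2e-06 after GC correction) and not by limma with the block (adjusted p = 0.11). The genes on either side on the same strand, SLM5, a mitochondrial tRNA synthetase, and PMP1, a small regulator of the plasma membrane proton pump, differed by 0.02 and -0.26 and were looked at after the values of YCR024C-B were seen. YHR175W-A, another small frame, had 40.6 and 63.0 in rrp6Δ, against 7.77 and 11.4 in Rrp6exo- and 9.82 and 42.6 in WT (2.31 on the log2 scale), which only DESeq2 with the block called (adjusted p = 0.036), and its WT libraries also lay far apart. ATX1, a copper chaperone, had 211 and 195 in rrp6Δ, against 106 and 93.5 in Rrp6exo- and 119 and 99.8 in WT, with close replicates in all strains and a log2 fold change of 1.02 (DESeq2 adjusted p = 0.015, and 0.27 after GC correction).

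The other coding genes that DESeq2 called as higher differed by less than 2-fold. They were ERV14, a cargo receptor of the secretory pathway (0.69), GMH1, a Golgi membrane protein (0.67), ZEO1, a membrane protein of cell wall signalling (0.66), OST2, a subunit of the oligosaccharyltransferase (0.61), BET4, a subunit of the prenyltransferase of Rab proteins (0.52), LAG1, a ceramide synthase (0.46), VPS52, a subunit of a Golgi tethering complex (0.39), RPN8, a proteasome subunit (0.40), and RPL11A, a ribosomal protein (0.37). ERV14 had 1234 and 1388 scaled counts in rrp6Δ, against 840.3 and 781 in Rrp6exo- and 858 and 1035 in WT, and LAG1 3065 and 3169.8 in rrp6Δ, against 2376 and 2146 in Rrp6exo- and 2563 and 2377 in WT. For both genes WT was nearer to Rrp6exo-. Of these 9, LAG1 and ZEO1 were still called by DESeq2 after GC correction.

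Among the 27 genes that DESeq2 called as lower in rrp6Δ, 13 that encode proteins of the cell wall or cell surface, or of wall synthesis, are given first. They are described together only for what they encode: they were picked from the calls themselves, so their direction was fixed by the choice, and their share was not set against that of such genes over all genes. SED1, a major wall mannoprotein, had 190274 and 199791 scaled counts in rrp6Δ, against 318213 and 292348 in Rrp6exo- and 256714 and 280685 in WT (log2 fold change -0.65, interval -0.91 to -0.38, DESeq2 adjusted p = 1.1e-07). CWP2, another wall mannoprotein, had 39058 and 37902 in rrp6Δ, against 52261 and 51769 in Rrp6exo- and 55984 and 51495 in WT (-0.43, DESeq2 adjusted p = 0.00010). For SED1 and CWP2 the rrp6Δ libraries were below all 4 others. FKS1, a catalytic subunit of glucan synthase, had 91213 and 97545 in rrp6Δ, against 121447 and 120714 in Rrp6exo- and 114324 and 125288 in WT (-0.36). FLO11, the flocculin of invasive growth, had 568 and 517 in rrp6Δ, against 868 and 833 in Rrp6exo- and 609 and 573 in WT (-0.65), so there WT was near rrp6Δ and Rrp6exo- stood above it. PRY1, a secreted sterol-binding protein, had 9595 and 8472 in rrp6Δ, against 16946 and 12061 in Rrp6exo- and 10149.8 and 10420.5 in WT (-0.67), again with Rrp6exo- as the strain that stood apart, and without Rrp6exo- replicate 1 its log2 fold change was -0.42.

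Others of these genes were PRY2, a relative of PRY1 (-0.44), SRL1 and SVS1, wall proteins (-0.47 and -0.44), SIM1, SCW4 and UTH1, which are wall proteins related to glucanases or septum formation (-0.40, -0.37 and -0.36), and MSB2 and HKR1, mucin-like sensors of the osmotic stress pathway (-0.38 and -0.36). In 12 of the 13 genes both rrp6Δ libraries were also below both WT libraries, and in 5 both Rrp6exo- libraries were above both WT libraries. The choice of genes rested on the same rrp6Δ and Rrp6exo- libraries, so both counts are partly fixed by it. They are no separate support, and the matching shares over all genes were not taken. The GC content of the 13 genes ran from 39.1% to 50.5%, with a median of 46.8% against 39.6% over all genes with a value. After GC correction 4 of them, SED1, FKS1, MSB2 and HKR1, were still called by DESeq2. None of the 13 passed limma with or without the block.

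**Figure D5:**
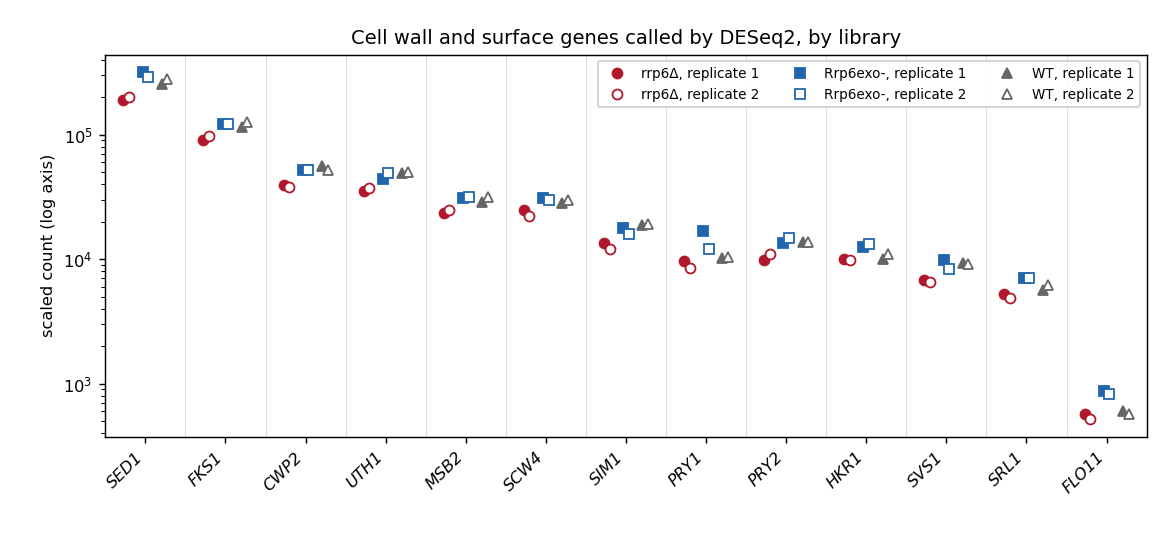
Scaled counts (log axis) of 13 cell wall and surface genes among those that DESeq2 called as lower in rrp6Δ, in each library, with rrp6Δ as circles, Rrp6exo- as squares and WT as triangles, replicate 1 filled and replicate 2 open. The genes were chosen from those calls, which fixes that rrp6Δ lies below Rrp6exo-, as in SED1 with 190274 and 199791 in rrp6Δ, against 318213 and 292348 in Rrp6exo-.

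The other 14 genes called as lower by DESeq2 include RRP6 and span several functions. DBP2, an RNA helicase that acts in transcription and decay, had 13059.7 and 11844 scaled counts in rrp6Δ, against 16348 and 16902 in Rrp6exo- and 11137 and 11114 in WT (-0.42, DESeq2 adjusted p = 0.0015). THI7, a thiamine transporter, had 4664 and 4638 in rrp6Δ, against 6926 and 6197 in Rrp6exo- and 4113 and 4439 in WT (-0.49). In DBP2 and THI7 Rrp6exo- was above both other strains and rrp6Δ lay nearer to WT, and both were still called after GC correction. PDR5, a drug efflux pump, had 28792 and 28629.9 in rrp6Δ, against 35729 and 35988 in Rrp6exo- and 32863 and 32407 in WT (-0.32, DESeq2 adjusted p = 3.2e-05). GIC2, an effector of Cdc42 in bud growth (-0.43), YNL190W (-0.40), HSL1, a kinase of the bud-neck checkpoint (-0.29), RPO21, the largest subunit of RNA polymerase II (-0.25), GLT1, glutamate synthase (-0.23), ERG7, an enzyme of sterol synthesis (-0.31), SEC16, a coat assembly protein (-0.32), PLB3, a phospholipase (-0.30), and MMR1, which carries mitochondria into the bud (-0.25), were also among them.

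The largest negative differences outside those calls were called by neither limma nor DESeq2 without the block. HSP12, a small stress protein, had 3012 and 3823 scaled counts in rrp6Δ, against 10052 and 3877 in Rrp6exo- and 1847 and 2330 in WT. Its log2 difference between the mutants of -0.88 was -1.74 within replicate 1 and -0.02 within replicate 2. TPO2, a polyamine exporter, was -0.68 and PIR3, a wall protein, -0.66, with intervals that hold 0, and DESeq2 with the block called PIR3 (adjusted p = 0.042). YAR073W is uncertain, since its reads can come from near-identical genes of inosine monophosphate dehydrogenase. YAR073W had 344 and 402 in rrp6Δ, against 507 and 769.7 in Rrp6exo- and 90.4 and 110 in WT (-0.75, adjusted p = 0.015 in DESeq2 with the block). Without Rrp6exo- replicate 2 its difference was -0.45. YPR204W, a subtelomeric helicase repeat with other copies, was -0.78. YNL143C and YAL059C-A, uncharacterized small frames, were -1.07 and -0.91 with intervals of -2.50 to 0.36 and -2.16 to 0.34. Both rrp6Δ libraries lay above both WT libraries in HSP12, YAR073W and YAL059C-A, and below them in YPR204W. In TPO2, PIR3 and YNL143C the rrp6Δ and WT libraries overlapped.

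Lists of coding genes moved little between the mutants. Of 138 cytosolic ribosomal protein genes, 71 had both rrp6Δ libraries higher and 0 lower, against 17.3% and 15.9% of all genes, with a median log2 fold change of 0.12. Against WT the medians of the ribosomal protein genes were -0.15 in rrp6Δ and -0.28 in Rrp6exo-. RPL15A was 0.39 and RPS24A 0.38, and DESeq2 called RPL11A alone of the list without the block, and RPL15A, RPS24A and 1 other with it (for RPL15A and RPS24A, adjusted p = 0.0061 and 0.012). In RPL11A rrp6Δ lay near WT: it had 13334 and 12397 scaled counts in rrp6Δ, against 9758 and 10208 in Rrp6exo- and 13278 and 11922 in WT (DESeq2 adjusted p = 0.049, and 0.28 after GC correction). The ribosomal protein median was 0.12 after GC correction. Of 23 amino acid synthesis genes, 9 had both rrp6Δ libraries lower and 0 higher, against 15.9% and 17.3% of all genes, with a median of -0.14 that was -0.25 without rrp6Δ replicate 1 and -0.03 without rrp6Δ replicate 2. LYS1 (-0.41) and ILV1 (-0.35), enzymes of lysine and isoleucine synthesis, were called only by DESeq2 with the block (adjusted p = 0.0036 and 0.032). The 22 ribosome biogenesis factors, 10 histone genes and 7 galactose genes had medians of -0.01, 0.02 and 0.04.

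Some genes of nutrient response had differences of opposite sign in the replicates. PHO84, the phosphate transporter whose antisense RNA is a known Rrp6 target, cannot be told apart from that antisense RNA where the strand setting of the counting is not given, and its log2 difference was 2.74 in replicate 1 and -0.34 in replicate 2. TIS11, an mRNA decay factor of iron shortage, was 1.68 in replicate 1 and -0.08 in replicate 2, and HXT7, a hexose transporter with a near-identical copy in HXT6, -1.73 and 0.49. None of PHO84, TIS11 and HXT7 was called. FIT1, a wall mannoprotein of iron uptake, was steady at -0.53 with an interval of -0.87 to -0.19 and did not pass. COS4, a subtelomeric gene with near-identical copies, was -0.30 (interval -0.86 to 0.27), and the 10 COS genes had a median of -0.09. DAN4 and TIR2, wall proteins of cells short of oxygen, were -0.53 and -0.42, of which DESeq2 with the block called DAN4 (adjusted p = 0.021), and 6 of the 22 seripauperin, TIR and DAN genes had both rrp6Δ libraries lower and 2 higher, against 15.9% and 17.3% of all genes. Their median GC content was 47.3%, and their median difference was -0.19 before and -0.07 after GC correction.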

How the data were processed

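RNA was sequenced from 2 clones each of rrp6Δ, Rrp6exo- and WT. The authors aligned paired reads of 50 bases in 2 passes with STAR to sacCer3, processed alignments with Picard 1.124, counted reads with HTSeq 0.5.3 on the R64 annotation and scaled them with DESeq. The deposited signal is this scaled count, and 100.0% of values were whole reads within 0.01, so reads were recovered. The strand setting of the counting was not given in the sources used here. RefSeq R64, the same assembly as sacCer3, gave positions, GC content and sequences for 5818 genes, and 459 were not matched.

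The test was limma 3.58.1 (R 4.3.3) after adding 1 to scaled counts and taking log2, with strain as the only term, a variance trend, all 6 libraries and Benjamini-Hochberg adjustment over 6277 genes. The lowest summed value was 14.4, so a minimum sum of 10 removed none. The pseudocount understates changes of low genes. edgeR 4.0.16 and DESeq2 1.42.0 on recovered reads, a replicate block, pseudocounts of 0.5 and 10, a mean of at least 10, other scalings, no trend, only the 4 libraries, each library left out and stricter thresholds were alternatives. GC correction was added after seeing the data and covers 92.7% of genes. Scripts were tested on simulated data.

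Replicate numbers were read as pairing the libraries, since library names carry the same number within a replicate. No label states a shared batch. The differences between replicates 2 and 1 also correlated across genes between rrp6Δ and Rrp6exo- (r = 0.46), rrp6Δ and WT (0.59) and Rrp6exo- and WT (0.55). Replicates differed by far more than sampling noise (chi-square over degrees of freedom from 77.6 to 117). Reads carry no molecular identifiers, so counts and floors cover counting error only.

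Members and gene lists were chosen with earlier results of these data known. Named genes are RRP6, MTR4, the plasmid markers and RRP6's neighbours, 7 snoRNAs and COS4, every gene passing limma, up to 12 rises and 12 falls passing a count test, the 10 largest rises and falls without overlap at a mean of at least 50, up to 3 genes per list, and cluster members. Others were chosen after their values were seen. One gene that DESeq2 called is not reported here.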

Additional observations from a re-analysis of the deposited data

How the results depend on the processing

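The count of genes called between rrp6Δ and Rrp6exo- was 1 as reported, RRP6, and also 1 with either pseudocount, the minimum mean, both rescalings, no trend, edgeR, GC correction in limma and the stricter thresholds. It was 2 with the replicate block, with the block in edgeR, with the block and GC correction, and with only the 4 libraries. It was 34 with the block and only the 4 libraries, 49 with DESeq2, 122 with DESeq2 and the block, 20 with DESeq2 and GC correction, and 95 with DESeq2, GC correction and the block. Leaving out 1 library gave 1 to 2 calls, 2 without either WT library. With all 6 libraries the block changed no limma call beside ATP6. Without 1 library, the C/D median ranged from 0.15 to 0.85 and the amino acid synthesis median from -0.25 to -0.03, by the rrp6Δ library left out. The H/ACA median of 0.24 ranged from 0.007 to 0.41 without 1 library, by the Rrp6exo- library left out. Without 1 library, the median of nuclear respiratory chain and ATP synthase genes ranged from -0.29 to 0.030, turning without Rrp6exo- replicate 1, and the SNR47 log2 fold change from -0.69 to 0.071, turning without rrp6Δ replicate 1. In each case the cause was not tested. With 2 clones a strain, the median limma interval reached 0.34 on either side.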
